A study of Oryza sativa with 12 samples.

Results

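Calcium sensor and calcium-dependent kinase genes of rice (Oryza sativa) were followed in phosphate-starved shoots of 4 genotypes. The genes were all those with a symbol or synonym CAM, CML, CBL, CIPK, CPK or CDPK and a number, with or without the prefix Os. A total of 92 genes in the reference annotation had such a name, and 77 of them had a probe set on the Affymetrix rice array that the annotation assigned to a single gene, out of 17905 genes named on the array. The other 15 genes had no such probe set and are not analysed here, CBL1, CIPK9 and CIPK15 among them. A gene with several probe sets was represented by its brightest one, judged by mean log2 signal over the 12 arrays. Of the 77 genes, 65 passed the filter on low signal: 3 of 3 CAM genes, 19 of 23 CML genes, 6 of 7 CBL genes, 22 of 24 CIPK genes and 15 of 20 CPK genes. The other 12 had a mean log2 signal over the 12 arrays below the filter and were not tested, although some were above background in part of the arrays. CPK22 read 1.6, 6.6 and 6.9 in WT and 52.7, 60.3 and 54.5 in phr3, and CIPK30 read 5.2, 3.3 and 9.6 in WT and 4.6, 79.8 and 88.9 in phr3. Each of these 2 was above the reporter control level, explained below, on 2 phr3 arrays and on no WT array, with no test. All other values are for the 65 genes.

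Plants use brief rises of calcium ions in the cytosol as an internal signal, and proteins with EF-hand motifs bind the ion and pass the signal on. Calmodulins (CAM) and calmodulin-like proteins (CML) are sensors that change shape and bind other proteins. Calcineurin B-like proteins (CBL) are sensors that bind and activate CBL-interacting protein kinases (CIPK), whose known targets include potassium, sodium and nitrate transport proteins. Calcium-dependent protein kinases (CPK, also written CDPK) join sensor and kinase in a single protein. The MYB transcription factors PHR1, PHR2 and PHR3 drive the phosphate starvation response in rice.

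The wild type (WT) was the cultivar Nipponbare, and it was compared with phr1, with phr3 and with phr123, a triple mutant of PHR1, PHR2 and PHR3. The labels give no background, allele or clone number for the mutants. Every genotype had 3 arrays, described as biological repeats with no word on separate cultures, so a p-value reflects the spread among those arrays. Plants of all 4 genotypes grew for 14 days at 200 µM phosphate, followed by 7 days of starvation. Starvation was common to all groups. A phr2 single mutant and phosphate-fed plants are not analysed here. The tissue label names leaf and the protocol names shoot.

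The values are linear MAS5 signal intensities, which were compared on the log2 scale with limma in a single fit over all 12 arrays and all 28597 probe sets that passed the filter. A gene is said to have risen or fallen where its adjusted p (Benjamini-Hochberg over those 28597) was below 0.05. Differences are given as log2 of mutant over WT with their standard error (SE), and a difference in signal between genes is not read as a difference in transcript level, because probe sets differ in brightness. In bulk shoots, fewer cells of a type and less RNA per cell cannot be told apart.

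PHR2 read 1750.2, 2031.1 and 1814.5 in WT and 18.3, 43.8 and 24.3 in phr123, and PHR1 was lower in phr1 by a log2 of -1.08 (limma adjusted p = 0.00382). In phr123, PHR1 read 569.1, 753 and 810.6, above every phr1 array, and differed from WT by a log2 of -0.56 (adjusted p = 0.0116). PHR3 read 57.7, 118.9 and 94.5 in phr3 and 462.4, 469.1 and 386.7 in WT, a log2 difference of -2.34 that missed the threshold (adjusted p = 0.0713). In phr123 the PHR3 difference from WT was -0.60, also without a call (adjusted p = 0.469). The array labelled phr123 replicate 1 read 1186.6 for PHR3, against 172.6 and 118.3 on the other phr123 arrays, so it goes against its label for that gene. Without it, 34 of the 36 calls in phr123 below were kept, and no called value moved by more than 1.16-fold. Of the 65 genes, 63 lay on all 12 arrays above the level of the reporter controls, taken as the 95th percentile of control sequences from other organisms. Median array signal ran from 56.6 to 85.6.

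**Figure D1:**
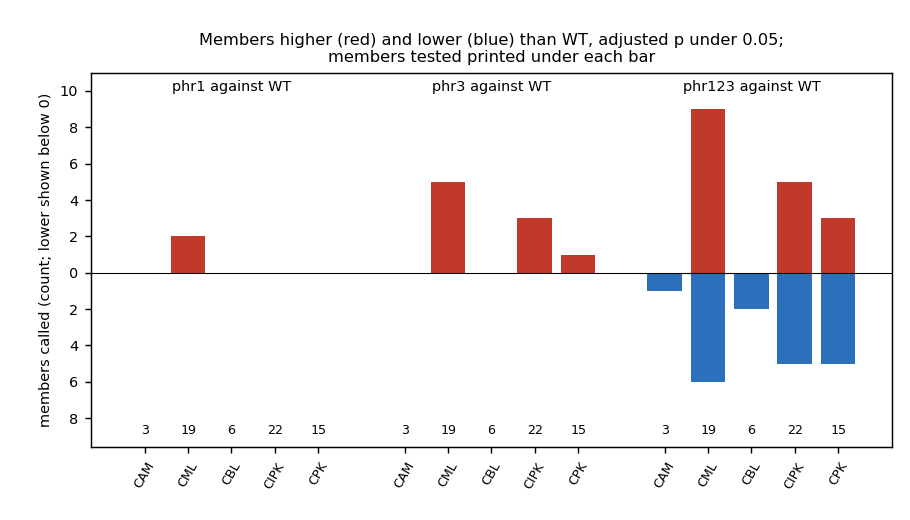
Number of genes of each subfamily that were higher (up) or lower (down) than WT at a limma adjusted p below 0.05 in phr1, phr3 and phr123. The counts go from 2 higher and 0 lower in phr1 to 9 higher and 0 lower in phr3 and 17 higher and 19 lower in phr123.

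In phr1, 2 of the 65 genes rose and 0 fell, which is 3.08% against 0.934% of all probe sets tested. Both were calmodulin-like genes, CML16 and CML27. In phr3, 9 rose and 0 fell, which is 13.8% against 1.99%. These were CML10, CML16, CML27, CML30, CML31, CIPK10, CIPK21, CIPK31 and CPK4. In phr123, 17 rose and 19 fell, which is 55.4% against 41.5% (20.5% of all probe sets higher and 21% lower). The share of tested genes called in phr123 was 33.3% for CAM, 78.9% for CML, 33.3% for CBL, 45.5% for CIPK and 53.3% for CPK. The share of all probe sets called lower was 0.486% in phr1, and the share called higher was 1.26% in phr3. The counts of 0 falls came from limma, and 12 genes in phr1 and 18 in phr3 had an unadjusted p below 0.05 in either direction. Of all 28597 probe sets tested, 2980 in phr1 and 3530 in phr3 had such a p. Over the 21370 probe sets above the reporter level on all arrays, 1.12% were called in phr1, 2.42% in phr3 and 48.3% in phr123. All 3 arrays lay above all 3 WT arrays for 4 genes in phr1, 17 in phr3 and 24 in phr123, against 8.01%, 10.3% and 27.6% of all probe sets tested. They lay below for 10, 3 and 24 genes, against 7.76%, 8.58% and 26.1%. The median log2 difference over the 65 genes was -0.05 in phr1, 0.08 in phr3 and 0.02 in phr123, and over all probe sets tested it was 0.01, 0.01 and 0.02. The 3 mutants share the same 3 WT arrays.

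Markers of other states moved in the same mutants. Of 20 tested genes of the JAZ, TIFY and DREB1 families, taken as markers of wounding, cold or handling, 0 were called by limma in phr1 (4 at an unadjusted p below 0.05), 9 rose in phr3, and 12 rose and 1 fell in phr123. The summed signal of that list was 40011 to 44348 in WT, 41460 to 45052 in phr1, 52613 to 66682 in phr3 and 92427 to 104086 in phr123. Markers of dividing tissue, 8 of them tested, had 0 calls in phr1 (0 at an unadjusted p below 0.05), 2 falls in phr3 and 4 falls in phr123, with summed signals of 1778 to 1933 in WT, 2168 to 2250 in phr1, 1180 to 1367 in phr3 and 1133 to 1421 in phr123. The 3 tested markers of leaf photosynthetic tissue fell in phr123 and were not called in phr1 or phr3. Their list summed to 183108 to 214834 in phr123 and 260705 to 263014 in WT. The leaf genes CAB2R, rca and OsrbcS were bright on every array, while of 7 root markers 2 were above the filter and neither was called. Those 2 root markers were Lsi1, with a mean of 914.1 in WT, and IRT1, with a mean of 172.6. Both were above the reporter level on all 12 arrays. Not every listed marker was above background: Lsi2, OSH1 and JAZ2 were above the reporter level on 0 of the 12 arrays. OsPT11 was above it on 1 array and the leaf marker RBCS1 on 3. A GAPDH control that reads RNA quality had a log2 ratio of its 3' to its 5' probe set of 2.18 to 2.45 in WT, 1.80 to 2.49 in phr1, 1.36 to 2.51 in phr3 and 1.54 to 1.80 in phr123. A second GAPDH control gave -0.87 to 5.26 in WT, -0.19 to 3.62 in phr1, -2.14 to 3.73 in phr3 and 2.27 to 5.02 in phr123. The part of these markers in the results below was not tested.

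**Figure D2:**
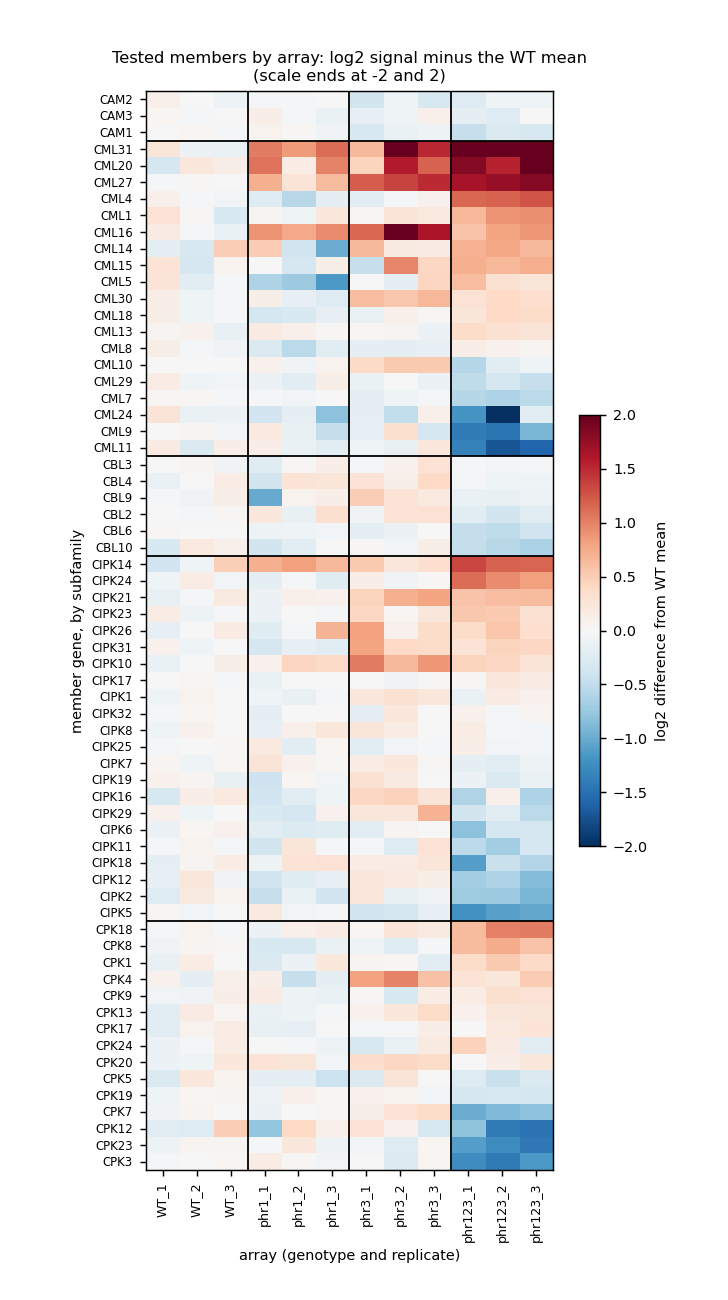
Signal of each of the 65 tested genes on each of the 12 arrays, as log2 difference from that gene's WT mean, with colour limits at -2 and 2 and genes grouped by subfamily. The phr1 and phr3 columns are mostly pale, and the phr123 columns hold both deep rises and deep falls, with genotype means from 3.30 for CML31 to -1.55 for CML11.

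Among the calmodulins, which are conserved EF-hand sensors, CAM1 fell in phr123 and CAM2 and CAM3 were not called in any mutant. The CAM1 probe set read 6546.5, 6716.2 and 6360.5 in WT, 6893.3, 6620.7 and 6214.9 in phr1, 5261.2, 5994.7 and 6067.5 in phr3, and 4729.3, 5366.8 and 5245.9 in phr123. The phr123 and phr3 arrays all lay below the WT arrays, and the phr1 arrays overlapped them. The log2 difference was -0.36 ± 0.08 in phr123 (limma adjusted p = 0.00268) and -0.18 ± 0.08 in phr3 (adjusted p = 0.376). The annotation gives CAM1-1, CAM1-2 and CAM1-3 as synonyms of this single gene entry, so near-identical copies may share its signal and the call is uncertain for any copy alone. The CAM1 call ended when each array was centred on its median (adjusted p = 0.112). For CAM2 the log2 difference in phr123 was -0.14 with a 95% interval from -0.33 to 0.05, and for CAM3 it was -0.15 with an interval from -0.35 to 0.05. The phr123 and WT arrays overlapped for both genes.

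The calmodulin-like genes held both calls in phr1, 5 of the 9 in phr3 and 15 of the 36 in phr123, from 19 genes tested. Their share called was 10.5%, 26.3% and 78.9%, against 0.934%, 1.99% and 41.5% of all probe sets tested. CML16 read 2557, 2249.6 and 2096.2 in WT, 4263.5, 3871.6 and 4402 in phr1, 5107.4, 9057.8 and 7139.8 in phr3, and 3402, 3956.7 and 4201.3 in phr123. Every mutant array lay above every WT array, and the phr3 arrays also lay above all others. The rise was 0.86 ± 0.16 in phr1 (limma adjusted p = 0.0215), 1.59 ± 0.16 in phr3 (3.01-fold, adjusted p = 0.000103) and 0.74 ± 0.16 in phr123 (adjusted p = 0.00201). Compared directly, phr3 was above phr1 by 0.73 (adjusted p = 0.0385) and phr123 was below phr3 by a log2 of -0.85 (adjusted p = 0.000756). The call between phr3 and phr1 ended in 11 of 21 alternatives, among them the replicate block and the removal of any phr1 array (adjusted p from 0.0544 to 0.153), and that between phr123 and phr3 in none. The phr1 call ended in 7 of 21 alternatives, among them the removal of WT replicate 2, WT replicate 3 or any phr1 array (adjusted p from 0.0615 to 0.122).

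CML27 had another order. It read 1690.1, 1742.4 and 1727.5 in WT, 2802, 2053.1 and 2678.9 in phr1, 3967.6, 4373.4 and 4859.6 in phr3, and 5383.4, 5764.4 and 6164.2 in phr123. The 4 genotypes did not overlap at all, in the order WT, phr1, phr3 and phr123. Against WT it rose by 0.53 ± 0.11 in phr1 (limma adjusted p = 0.0464), by 1.35 ± 0.11 in phr3 (2.55-fold, adjusted p = 2.69e-05) and 1.74 ± 0.11 in phr123 (3.35-fold, adjusted p = 3.6e-08). Each neighbouring pair of mutants differed too, with phr3 above phr1 by 0.82 (adjusted p = 0.00273) and phr123 above phr3 by 0.39 (adjusted p = 0.013), the latter call ending without phr3 replicate 1 or phr123 replicate 3. A second, dimmer probe set of CML27 was not called against WT in any mutant, with 0.23 in phr3 (adjusted p = 0.894) and 0.58 in phr123 (adjusted p = 0.283). Its phr1 signal was at or below the reporter level on all 3 arrays, so it has a bound there, at least 1.20-fold lower than WT (adjusted p = 0.448). For the same reason that probe set gave a bound of at least 1.40-fold higher in phr3 than in phr1, without a call (adjusted p = 0.207). Between phr123 and phr3 it gave 0.35, also without a call (adjusted p = 0.539). The phr1 call of the brighter probe set ended in 16 of 22 alternatives.

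CML31 showed the largest log2 difference of the 65 genes in phr123. It read 301.1, 233.1 and 231.6 in WT, 517.8, 457.5 and 551.1 in phr1, 398.6, 1391.5 and 720.6 in phr3, and 2978.7, 2226.7 and 2325.8 in phr123. All mutant arrays exceeded all WT arrays, the phr3 arrays were spread widely, and the phr123 arrays stood above every other. The rise in phr123 was 3.30 ± 0.32, or 9.83-fold (limma adjusted p = 1.41e-06), and in phr3 1.54 ± 0.32 (adjusted p = 0.0212). The phr1 difference of 1.00, with a 95% interval from 0.32 to 1.68, was not called (adjusted p = 0.223). It was called in the fit of the 2 genotypes and without phr3 replicate 1 or 2 (adjusted p from 0.0255 to 0.0473). The phr3 call was lost without phr3 replicate 3, WT replicate 2 or WT replicate 3 and also under eBayes with no trend (adjusted p from 0.074 to 0.0984). CML31 was higher in phr123 than in phr3 by 1.76 (adjusted p = 0.000471) and than in phr1 by 2.29 (adjusted p = 4.54e-05).

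**Figure D3:**
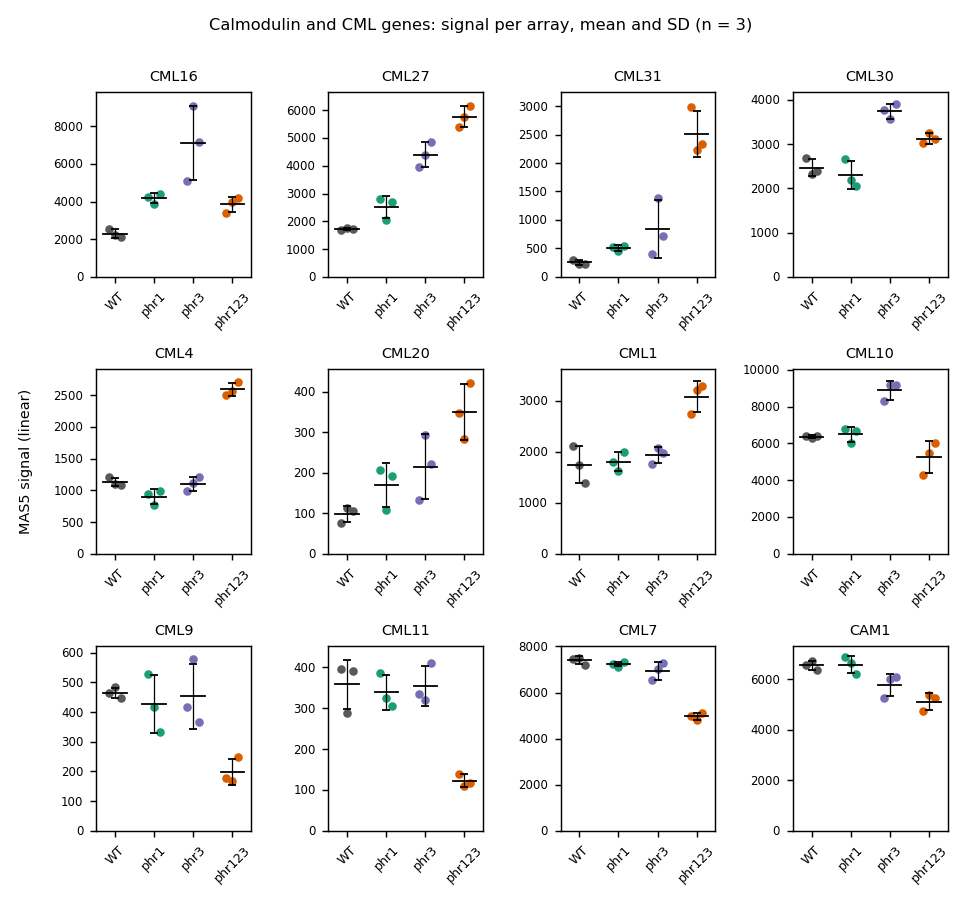
Signal (linear MAS5 intensity, axis from 0) of 11 calmodulin-like genes and CAM1 on each array, 1 point per array and a bar at the mean of each genotype's 3 arrays. CML16 peaks in phr3, CML27 climbs from WT through phr1 and phr3 to phr123, and CML4, CML9 and CML11 depart from the other genotypes in phr123.

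CML30 and CML10 were the remaining sensors called in phr3. CML30 read 2687.5, 2316.9 and 2401.3 in WT, 2669.9, 2198.2 and 2058.5 in phr1, 3779.9, 3567.1 and 3898.4 in phr3, and 3017.5, 3256.2 and 3108.6 in phr123. The phr3 and phr123 arrays lay above the WT arrays without overlap and the phr1 arrays overlapped WT. CML30 rose by 0.60 ± 0.10 in phr3 (limma adjusted p = 0.00494) and 0.34 ± 0.10 in phr123 (adjusted p = 0.0133), and the 2 mutants differed by a log2 of -0.26 without a call (adjusted p = 0.0518). The first of these calls ended with median centring (adjusted p = 0.0842) and the second without phr123 replicate 2 or WT replicate 2 (adjusted p from 0.052 to 0.054). CML10 moved in opposite directions, at 6426.5, 6308.5 and 6376.6 in WT, 6757.5, 6043.7 and 6652.5 in phr1, 8291.6, 9167.5 and 9182 in phr3, and 4304.5, 5482.2 and 6027.3 in phr123. Its phr3 arrays were all above WT and its phr123 arrays all below. CML10 rose by 0.48 ± 0.11 in phr3 (adjusted p = 0.0339) and was lower in phr123 by a log2 of -0.29 ± 0.11 (adjusted p = 0.0426). The call in phr3 was lost in 7 of 21 alternatives and the call in phr123 in 13 of 21, among them leaving out the phr123 array with the PHR3 signal (adjusted p = 0.203), while phr123 against phr3 gave -0.76 (adjusted p = 4.99e-05) and was kept in all 21.

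Several calmodulin-like genes differed from WT in phr123 and were not called in phr1 or phr3. CML4 read 1210.3, 1105.1 and 1084 in WT, 941.6, 771.2 and 988.8 in phr1, 981.9, 1110.2 and 1207.1 in phr3, and 2509, 2568.1 and 2700.7 in phr123. The phr123 arrays exceeded all others by a wide margin. CML4 rose by 1.20 ± 0.11 in phr123 (limma adjusted p = 1.25e-06), and its second tested probe set gave 1.25 (adjusted p = 3.7e-06). Direct comparison put phr123 above phr1 by 1.53 (adjusted p = 1.14e-07) and above phr3 by 1.24 (adjusted p = 9.4e-07). CML1, also known as OsCAM61, a calmodulin-like protein with an extended C-terminus, read 2110.9, 1751.6 and 1394.6 in WT and 2745.9, 3209.7 and 3302.9 in phr123. That rise was 0.83 ± 0.14 (adjusted p = 0.000249), and the phr1 and phr3 arrays overlapped WT.

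CML20, a dim probe set, read 77.1, 113.4 and 104.9 in WT, 207.3, 107.9 and 192.7 in phr1, 132.1, 293.2 and 220.5 in phr3, and 348, 282.5 and 421 in phr123. The phr3 arrays lay above WT but were not called (1.07 ± 0.33, limma adjusted p = 0.148), and the phr123 rise was 1.83 ± 0.33 (3.56-fold, adjusted p = 0.000431). Smaller rises in phr123 were found for CML18 (0.34, adjusted p = 0.00565) and CML13 (0.31, adjusted p = 0.0112). The phr123 arrays of CML18, from 16521 to 18477, did not overlap the WT arrays, from 13122 to 15060. The CML13 call ended without WT replicate 3 (adjusted p = 0.0627).

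In the other direction, 6 calmodulin-like genes fell in phr123. CML11 read 397.3, 289.4 and 390.3 in WT, 387.6, 324.9 and 304.5 in phr1, 333.9, 319.2 and 411.3 in phr3, and 139.5, 108.6 and 118.1 in phr123. The first 3 genotypes overlapped and phr123 lay below them all, by a log2 of -1.55 ± 0.19 against WT (limma adjusted p = 1.66e-05). CML9 read 463.5, 483.2 and 447.5 in WT, 529, 417 and 333.8 in phr1, 416.2, 577.2 and 367.7 in phr3, and 176, 168.8 and 247.1 in phr123. The phr123 arrays again lay below all others, with -1.26 ± 0.21 against WT (adjusted p = 0.000286), -1.11 against phr1 (adjusted p = 0.000787) and -1.20 against phr3 (adjusted p = 0.000452). CML9 and CAM2 are adjacent in the gene order of the reference, and CAM2 was not called.

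CML7 read 7477.5, 7515.6 and 7197.5 in WT and 4965.5, 4827.6 and 5103.4 in phr123, a difference of -0.58 ± 0.07 (limma adjusted p = 1.02e-05), with phr1 overlapping WT between 7130.1 and 7330.8. CML29 differed by -0.44 ± 0.09 (adjusted p = 0.00176), a call that ended with median centring (adjusted p = 0.0713). CML24 read 180.2, 136.4 and 137.9 in WT and 66, 32.2 and 129.3 in phr123. The phr123 arrays were scattered and 1 of them was at or below the reporter level, so the size of the difference, -1.21 ± 0.43 (adjusted p = 0.0383), is uncertain. It was lost in 9 of 21 alternatives, among them leaving out phr123 replicate 1 (adjusted p = 0.0685).

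The tested CBL sensors, which recruit CIPK kinases to membranes, had 0 limma calls in phr1 and phr3 (0 at an unadjusted p below 0.05 in either) and 2 falls in phr123, from 6 genes. The share called was 33.3%, against 41.5% of all probe sets called and 21% lower. CBL6 read 4768.3, 4641.3 and 4654.6 in WT, 4349, 4439 and 4521.2 in phr1, 4089.1, 4340.9 and 4688.3 in phr3, and 3365.4, 3309.8 and 3547.5 in phr123. Its phr123 arrays were below every other array. CBL6 fell by 0.46 on the log2 scale in phr123 (SE 0.07, limma adjusted p = 0.000151), and the direct differences from phr1 and phr3 were -0.38 and -0.36 (adjusted p = 0.000722 and 0.00122), both lost with median centring (adjusted p = 0.619 and 0.316). CBL10 read 702.5, 988.2 and 933 in WT, 669, 739.3 and 874.3 in phr1, 878, 835.9 and 935.7 in phr3, and 622.8, 589.9 and 556.9 in phr123. In Arabidopsis CBL10 is a shoot partner of the SOS2 kinase. The phr123 difference was -0.55 ± 0.14 (adjusted p = 0.00587) and ended with median centring (adjusted p = 0.0884).

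CBL2 was called only between mutants, lower in phr123 than in phr1 by a log2 of -0.39 (limma adjusted p = 0.0303) and than in phr3 by -0.43 (adjusted p = 0.02), while its phr123 difference from WT was -0.27 (adjusted p = 0.135). The first call was lost in 7 of 21 alternatives and the second in 4, median centring among them in both cases (adjusted p up to 0.647 and 0.253). CBL3, CBL4 and CBL9 were not called in any comparison. For CBL3 the 95% interval in phr123 ran from -0.27 to 0.19. CBL4, the SOS3 sensor of the salt tolerance pathway, had an interval from -0.43 to 0.29. CBL9 had a wide interval from -0.70 to 0.45. Changes up to those sizes could not be told from 0 with 3 arrays.

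The CIPK kinases, 22 of them tested, had 0 limma calls in phr1 (3 at an unadjusted p below 0.05) and 3 rises in phr3. In phr123 they had 5 rises and 5 falls. The share called was 13.6% in phr3, against 1.99% of all probe sets tested. In phr123 it was 45.5% (22.7% higher and 22.7% lower), against 41.5% (20.5% higher and 21% lower). CIPK10 read 328.5, 363.3 and 390.9 in WT, 382.1, 482.9 and 471.9 in phr1, 738.6, 567.2 and 657.4 in phr3, and 487.9, 481.9 and 431.6 in phr123. The phr3 arrays were above all others. CIPK10 rose by 0.85 ± 0.15 in phr3 (limma adjusted p = 0.006), was at 0.37 ± 0.15 in phr123 (adjusted p = 0.0538), and was lower in phr123 than in phr3 by a log2 of -0.48 (adjusted p = 0.0165), a call lost in 3 of 22 alternatives. Its second probe set gave 0.64 in phr3 (adjusted p = 0.0581), and median centring ended the call (adjusted p = 0.113).

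CIPK21 read 367, 396.4 and 462.6 in WT, 375.6, 434.4 and 429.4 in phr1, 553.2, 665.5 and 705.8 in phr3, and 607.2, 626.4 and 634.1 in phr123. The phr3 and phr123 arrays shared a higher range and the WT and phr1 arrays a lower one. CIPK21 rose by 0.65 ± 0.14 in phr3 (limma adjusted p = 0.024) and 0.61 ± 0.14 in phr123 (adjusted p = 0.00226). The phr3 call was lost in 6 of 21 alternatives, among them removal of WT replicate 1 or 2 or phr3 replicate 2 or 3 (adjusted p from 0.0588 to 0.221). CIPK31 read 5797.9, 5126.8 and 5428.2 in WT, 4312.7, 4834.5 and 4718.6 in phr1, 9366.2, 7171.4 and 7035.4 in phr3, and 6561.4, 7399.4 and 7280.9 in phr123. Its rises were 0.52 ± 0.11 in phr3 (adjusted p = 0.0212) and 0.38 ± 0.11 in phr123 (adjusted p = 0.0106), while the phr1 arrays lay below WT without a call (-0.24, adjusted p = 0.454). A second probe set of CIPK31 gave 0.20 and -0.22 with no call, and the phr3 call also ended without phr3 replicate 1, WT replicate 2 or WT replicate 3. Median centring and eBayes with no trend ended that phr3 call too.

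**Figure D4:**
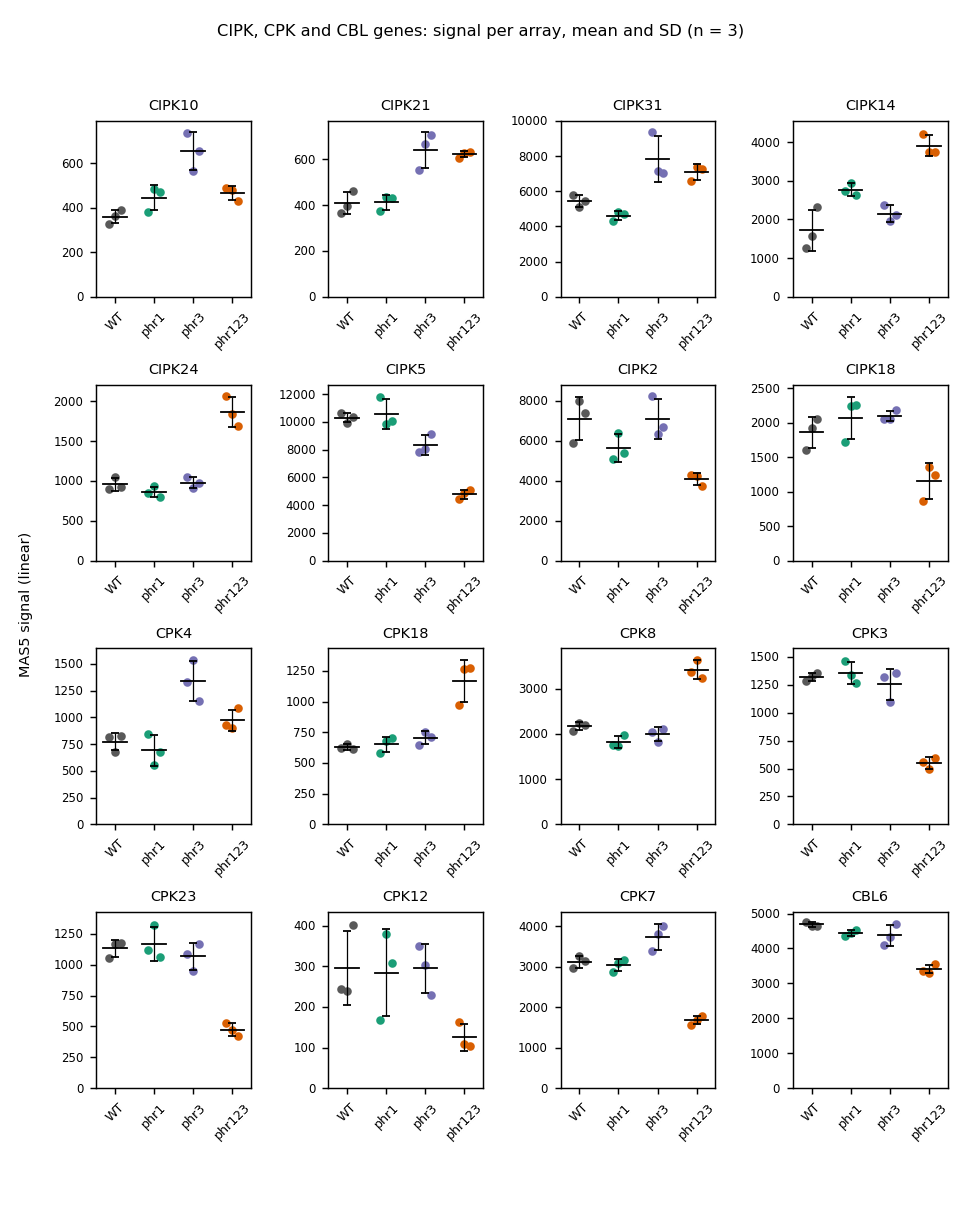
Signal (linear MAS5 intensity, axis from 0) of 8 CIPK genes, 7 CPK genes and CBL6 on each array, 1 point per array and a bar at the mean of each genotype's 3 arrays. CIPK10 and CPK4 are highest in phr3, CIPK14 and CIPK24 in phr123, and CIPK5, CPK3, CPK23 and CPK7 are lowest in phr123.

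The largest CIPK rises in phr123 were those of CIPK14 and CIPK24. CIPK14, a kinase linked in rice cells to responses to microbial elicitors, read 1274.1, 1565.4 and 2313.8 in WT, 2726, 2950.3 and 2620.2 in phr1, 2381.6, 1951 and 2112.3 in phr3, and 4223.4, 3756.9 and 3743.5 in phr123. The WT arrays were widely spread, and the phr1 and phr123 arrays lay above all of them. Its rise was 1.23 ± 0.16 in phr123 (2.34-fold, limma adjusted p = 3.46e-05), and the phr1 difference of 0.73, with a 95% interval from 0.38 to 1.08, stood just outside the threshold (adjusted p = 0.0581). That phr1 difference was called with 16 added to each signal and without phr123 replicate 1 or WT replicate 3 (adjusted p from 0.00257 to 0.0486). CIPK24, the rice SOS2 kinase that acts with CBL4 in sodium export, read 897.9, 1054.9 and 919.6 in WT, 847.4, 931.1 and 803.5 in phr1, 1050.6, 907.4 and 973.4 in phr3, and 2060.6, 1835.1 and 1693 in phr123. Only the phr123 arrays stood apart among the 4 genotypes. CIPK24 rose by 0.96 ± 0.11 against WT (1.94-fold, adjusted p = 9.1e-06), and phr123 exceeded phr1 by 1.11 (adjusted p = 2.15e-06) and phr3 by 0.93 (adjusted p = 1.3e-05). CIPK23, which with CBL1 activates the potassium channel AKT1 in rice, rose by 0.45 in phr123 (adjusted p = 0.00706), and its second probe set gave 1.19 (adjusted p = 3.47e-05).

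CIPK5 had the largest fall among the kinases of this subfamily. It read 10623, 9960.1 and 10359 in WT, 11832, 9876.2 and 10058 in phr1, 7838.1, 8062.2 and 9162.4 in phr3, and 4435.8, 4865.6 and 5058.1 in phr123. The phr3 arrays were below the WT arrays and the phr123 arrays were lower still. The log2 difference was -0.31 in phr3 (limma adjusted p = 0.123) and -1.11 ± 0.09 in phr123 (adjusted p = 2.7e-07), and phr123 was below phr3 by a log2 of -0.80 (adjusted p = 6.9e-06). The other falls in phr123 were CIPK2 at -0.78 (adjusted p = 0.000213), CIPK12 at -0.73 (adjusted p = 0.00166), CIPK18 at -0.71 (adjusted p = 0.00259) and CIPK6 at -0.50 (adjusted p = 0.0064). CIPK12 is a kinase whose overexpression improved drought tolerance in rice. Its second probe set gave -1.20 without a call (adjusted p = 0.103), whereas the second probe set of CIPK2 gave -0.71 (adjusted p = 0.000293).

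CIPK2 read 5899.4, 7991.2 and 7374.2 in WT and 4281.8, 4247 and 3739.4 in phr123, and CIPK18 read 1605, 1916.9 and 2049.2 in WT and 859, 1359 and 1236.3 in phr123. Neither gene's phr123 arrays overlapped WT. CIPK2 lies next to CIPK29 in the gene order of the reference. CIPK29 was not called against WT in phr123 (-0.38, limma adjusted p = 0.0592) and was lower in phr123 than in phr3 by a log2 of -0.76 (adjusted p = 0.000973). CIPK7 was not called in phr123 by its brighter probe set (-0.17, adjusted p = 0.129), while its second probe set gave -1.22 (adjusted p = 1.48e-05). Both probe sets pointed down and the dimmer one was called. CIPK16 and CIPK19 were lower in phr123 than in phr3, by log2 values of -0.75 and -0.35 (adjusted p = 0.00819 and 0.0336), and were not called against WT. Median centring ended both calls, and that of CIPK19 was lost in 7 of 21 alternatives.

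Other CIPK genes were not called. CIPK1 had a phr123 difference of 0.04 with a 95% interval from -0.14 to 0.22. CIPK8, CIPK25 and CIPK32 had intervals from -0.22 to 0.27, from -0.20 to 0.23 and from -0.18 to 0.24. CIPK11 read 256.6, 278.3 and 258.7 in WT and 183.5, 163.9 and 208.8 in phr123, all below WT, and its difference of -0.52 just missed the threshold (limma adjusted p = 0.0592). It was called with eBayes moderated with no trend, in the fit of the 2 genotypes and without phr1 replicate 1. CIPK17 and CIPK26 had phr123 differences of 0.14 and 0.42 (adjusted p = 0.28 and 0.189), with all phr123 arrays above WT.

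The CPK kinases, 15 of them tested, had 0 limma calls in phr1 (1 at an unadjusted p below 0.05) and 1 rise in phr3. In phr123 they had 3 rises and 5 falls. The share called was 6.67% in phr3, against 1.99% of all probe sets tested. In phr123 it was 53.3% (20% higher and 33.3% lower), against 41.5% (20.5% higher and 21% lower). CPK4, a kinase whose overexpression raised salt and drought tolerance in rice, read 811.7, 678.3 and 821.7 in WT, 842.8, 557.4 and 674.8 in phr1, 1334.6, 1531.1 and 1155.4 in phr3, and 925.7, 898.4 and 1087.2 in phr123. Both phr3 and phr123 arrays lay above WT, with phr3 the higher. CPK4 rose by 0.79 ± 0.16 in phr3 (limma adjusted p = 0.0169), and the phr123 difference of 0.33 was not called (adjusted p = 0.108). With median centring the phr123 difference was called (adjusted p = 0.0318). Direct comparison gave phr3 above phr1 by 0.97 (adjusted p = 0.00654) and phr123 below phr3 by a log2 of -0.46 (adjusted p = 0.0299), the latter call lost in 6 of 21 alternatives. The phr3 call ended without phr3 replicate 1, phr3 replicate 2 or WT replicate 2, and also under eBayes with no trend (adjusted p from 0.0501 to 0.09).

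CPK18 and CPK8 rose in phr123. CPK18, which in rice phosphorylates the MAP kinase MPK5 and represses defence, read 618.9, 656.7 and 611.6 in WT, 582.5, 675.2 and 700.7 in phr1, 648.2, 755.1 and 710.7 in phr3, and 973.1, 1265.2 and 1271.5 in phr123. CPK8 read 2071.4, 2241.9 and 2196.6 in WT, 1759.3, 1738.4 and 1969 in phr1, 2052.1, 1810.6 and 2106.5 in phr3, and 3369.6, 3641.6 and 3229.8 in phr123. For both genes the phr123 arrays exceeded those of the other 3 genotypes. The rises were 0.88 ± 0.13 for CPK18 (limma adjusted p = 7.08e-05) and 0.65 ± 0.09 for CPK8 (adjusted p = 4.64e-05). CPK1 rose by 0.43 (adjusted p = 0.0153), a call lost without phr123 replicate 2 or WT replicate 1 (adjusted p from 0.0606 to 0.0676).

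The 5 CPK falls in phr123 ran from -0.34 to -1.27 on the log2 scale. CPK3 read 1280.6, 1331.6 and 1354 in WT, 1467.2, 1337.4 and 1266.1 in phr1, 1317, 1097.7 and 1353.8 in phr3, and 556.9, 496.9 and 595.8 in phr123. CPK23, known as SPK, a kinase required for storage product accumulation in developing rice seed, read 1054.8, 1171 and 1174.2 in WT, 1118.9, 1324.5 and 1060.3 in phr1, 1084.7, 951.6 and 1163.8 in phr3, and 526.4, 473.2 and 420.7 in phr123. In both cases WT, phr1 and phr3 overlapped and phr123 stood well below. The log2 differences from WT were -1.27 ± 0.11 for CPK3 (limma adjusted p = 5.97e-07) and -1.26 ± 0.12 for CPK23 (adjusted p = 1.91e-06).

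CPK12, a kinase whose overexpression raised salt tolerance in rice, was measured with a wider spread, at 244.7, 240.2 and 401.2 in WT, 167.1, 379 and 308.4 in phr1, 350.4, 303.9 and 230.5 in phr3, and 163.7, 108.4 and 102.6 in phr123. Every phr123 array was below every other array. The difference from WT was -1.23 ± 0.32 (limma adjusted p = 0.0062). CPK7 read 2968.3, 3253.8 and 3135.9 in WT, 2879.7, 3083.9 and 3176.5 in phr1, 3390.2, 3804.8 and 4014.2 in phr3, and 1570.9, 1694.9 and 1770 in phr123. Its phr3 arrays were above WT without a call (0.26, adjusted p = 0.202) and its phr123 arrays were below all others, by a log2 of -0.89 ± 0.09 against WT (adjusted p = 1.72e-06) and -1.15 against phr3 (adjusted p = 1.67e-07). CPK19 differed by -0.34 ± 0.08 in phr123 (adjusted p = 0.00378), a call that ended with median centring (adjusted p = 0.219).

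CPK13, known for salt, drought and cold tolerance under its older name OsCDPK7, was called once, with phr123 above phr1 by 0.27 (limma adjusted p = 0.0469), and 12 of 22 alternatives ended that call. CPK5, CPK9, CPK17, CPK20 and CPK24 were not called in any comparison. For CPK17 and CPK20 the 95% intervals in phr123 ran from -0.09 to 0.41 and from -0.12 to 0.35. The same older CDPK number is given to more than 1 gene in the annotation, so the CPK names are used here.

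Compared directly, phr3 was higher than phr1 for 7 of the 65 genes and lower for 0, against 1.68% of all probe sets called in either direction and 0.678% called lower. They were CML10, CML16, CML27, CML30, CIPK21, CIPK31 and CPK4, with log2 differences from 0.45 to 0.97. The call was lost in 13 of 21 alternatives for CML10, 11 of 21 for CML16 and 11 of 21 for CIPK21, and the replicate block ended those of CML10 and CML16. The second probe sets of CML27 and CIPK31 were not called in this comparison (limma adjusted p = 0.207 and 0.362). Of the 9 genes that rose in phr3, CML31 and CIPK10 were the ones not called between phr3 and phr1. A count of 0 for the lower direction came from limma, while 25 genes had an unadjusted p below 0.05 in either direction. Of all 28597 probe sets tested, 3875 had such a p in this comparison.

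The triple mutant differed from phr1 in 38 genes, 20 higher and 18 lower, against 42.8% of all probe sets (20.8% higher and 22% lower). It differed from phr3 in 37 genes, 12 higher and 25 lower, against 41% (19.1% higher and 21.9% lower). Against phr3, the CIPK subfamily had 2 genes higher and 10 lower, the CBL subfamily 0 higher and 3 lower, and the CML subfamily 7 higher and 6 lower. Median centring ended all 3 of these CBL calls and those of CIPK6, CIPK7, CIPK10, CIPK16 and CIPK19. Genes called between mutants and in no mutant against WT were CBL2, CIPK7, CIPK16, CIPK19, CIPK29, CML5, CML8, CML15 and CPK13. CML8 was higher in phr123 than in phr1 by 0.43 (limma adjusted p = 0.00173) and than in phr3 by 0.27 (adjusted p = 0.0311), the latter lost in 9 of 21 alternatives, among them leaving out any phr3 or phr123 array (adjusted p up to 0.0859). CML15 was higher in phr123 than in phr1 by 0.76 (adjusted p = 0.0416), a call lost in 10 of 21 alternatives, among them the replicate block and leaving out any phr123 array (adjusted p up to 0.138). CML5 was higher in phr123 than in phr1 by 1.22 (adjusted p = 0.000946), but its second probe set gave -0.08 (adjusted p = 0.842). When each array was centred on its median, the splits of higher and lower genes became 19 and 13 in phr123 against WT, 27 and 7 against phr1, and 14 and 13 against phr3. That centring shifts the median of all probe sets against WT to -0.18 in phr1, -0.07 in phr3 and 0.11 in phr123.

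Transcripts of genes for proteins that create or use calcium signals were measured beside those of the sensors. Of 10 tested calcium channels and transporters, 0 were called by limma in phr1 and phr3 (0 at an unadjusted p below 0.05 in either), and 6 rose and 0 fell in phr123, where 20.5% of all probe sets were higher and 21% lower. Their median log2 difference was 0.60. The vacuolar calcium/proton exchanger CAX2 had a mean signal of 191.7 in WT and 470.2 in phr123, a rise of 1.30 ± 0.21 (limma adjusted p = 0.000193). ACA8, a calcium-pumping ATPase, had means of 340.7 and 823.5, a rise of 1.29 ± 0.16 (adjusted p = 1.91e-05). The glutamate receptor-like channel gene GLR3.1 rose by 0.62, the exchangers CAX1a and CAX1b by 0.57 and 0.86, and ACA10 by 0.44 (adjusted p = 0.000306, 0.00514, 0.0446 and 0.00853). OsTPC1, a two-pore channel gene, was at 0.14 (adjusted p = 0.471). OsrbohB, an NADPH oxidase gene of a family that calcium activates, was lower in phr123 by a log2 of -0.78 ± 0.12 (adjusted p = 0.000164), and AKT1, the potassium channel activated by CIPK23, rose by 1.12 ± 0.17 (adjusted p = 0.000109). The potassium transporter gene HAK1 fell in phr1 by 0.89 on the log2 scale (adjusted p = 0.00975) and rose by 0.59 in phr123 (adjusted p = 0.00544). HAK5, AMT1-1 and AMT1-2, which are potassium and ammonium transporters, and the calcium/calmodulin-dependent kinase gene CCAMK were not called in any mutant against WT.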

How the data were processed

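RNA of 12 shoot samples, 3 of each of 4 genotypes, was measured on a 1-colour Affymetrix rice array. The deposited values are signal intensities that the authors computed with MAS5, per the submitters' processing notes, which name no version. Each array had a trimmed mean near 500.1, so arrays had been scaled before deposit. All further steps used R 4.3.3 and limma 3.58.1. Of 57381 probe sets, 187 controls were removed, values of 0 (8 in all) were set to 0.1, and the 28597 probe sets with a mean log2 signal at or above the median (a signal of 49.4) were kept. One mean per genotype was fitted with lmFit (8 residual degrees of freedom) and eBayes with a trend, and p-values were adjusted by Benjamini-Hochberg over all probe sets kept. The number of arrays limits the precision. The code was tested on simulated data.

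The reporter level of an array is the 95th percentile of 61 reporter control probe sets, with 3 of 1 reporter sequence left out because they carried signal in a mutant. The annotation named 1 gene for 22436 probe sets, several for 95 and none for 34663, and all 17905 genes were found in the RefSeq table of ASM3414082v1, used for names and gene order only. Genes are named where called in any of the 6 comparisons, where they had the highest signal or smallest adjusted p of their subfamily, or where probe sets disagreed; others named were chosen after their values were seen. The genes and lists were chosen with earlier results of these data known. No sequences were used here.

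Alternatives were a pseudocount of 16, quantile normalization, median centring, 2 other filters, eBayes without a trend or with robust moderation, a replicate block, fits of the 2 genotypes compared, each array left out and the second brightest probe set.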

Additional observations from a re-analysis of the deposited data

How the results depend on the processing

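The count of genes called in phr1 against WT, 2 as reported, was 1 with quantile normalization, with no filter, with the replicate block and with the second brightest probe set, and 0 with median centring or under eBayes with no trend. The count in phr3 against WT, 9 as reported, was 4 with median centring, 5 with eBayes with no trend and 5 with the second brightest probe set. That of phr3 against phr1, 7 as reported, was 4 with eBayes with no trend and 4 with the second brightest probe set. The second probe set of CML10 was below the filter and not tested, so its loss from both counts is not a change of call. Leaving out 1 array at a time gave counts of 0 to 3 for phr1, 4 to 9 for phr3, 33 to 38 for phr123, 4 to 8 for phr3 against phr1, 31 to 39 for phr123 against phr1 and 33 to 39 for phr123 against phr3. The lowest count for phr3 came without WT replicate 2, which ended the calls of CIPK21, CIPK31, CML10, CML31 and CPK4. With the second brightest probe set the sign turned for CML27 in phr1 (-0.91, where that probe set was at or below the reporter level on all 3 phr1 arrays, so its direction is uncertain), for CIPK31 in phr123 against WT (-0.22) and against phr1 (-0.0181), for CML5 in phr123 against phr1 (-0.0845) and against phr3 (-0.87) and for CPK13 in phr123 against phr1 (-0.14). Over the genes called in any of the 6 comparisons, and not all 65, 229 called values missed the threshold under an alternative. In that set 39 uncalled values passed it and 6 values turned sign with a call before or after. Genes never called, CIPK11 among them, are left out of these counts, and the causes were not tested. Of the calls, 24 of 36 in phr123, 1 of 9 in phr3 (CML16) and 0 of 2 in phr1 were kept in every setting run for them.

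Same-numbered arrays of different genotypes did not deviate together (r from -0.05 to 0.03 in 18 pairs, 0 above 0.1). Arrays with different numbers gave r from -0.07 to 0.07 in 36 pairs. No shared deviation by replicate number was visible, which cannot show whether same-numbered samples were handled together. With the replicate block the counts were 1, 9 and 36 in phr1, phr3 and phr123 against WT, 5 for phr3 against phr1, 39 for phr123 against phr1 and 37 for phr123 against phr3. The filter that asked for 3 arrays above the reporter level kept 34238 probe sets, more than the 28597 of the reported filter. Of the 77 genes with a probe set, 12 were not tested because their mean signal was below the filter, and these were above the reporter level on 0 to 5 arrays.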
